A study of Mus musculus with 5 samples.

Results

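Foxa1 binding was examined at 3 genomic intervals, near Arap1, Notch2 and Gatad2a, and in the 100 kb on each side of them. The intervals were taken by gene name from the study's supplementary list of elements that both Foxa1 and Foxa2 bind near diabetes susceptibility genes, which holds 33 distinct intervals at 26 genes on 34 lines, since the line for Notch2 is printed 2 times. Foxa1 was precipitated from liver chromatin of wild type CD1 outbred male mice, 2 to 3 months old, and the DNA was sequenced in 5 libraries, described as biological replicates. There was 1 condition, with no transgene or treatment, and each chromatin preparation used 100 mg of frozen whole liver, so reads from hepatocytes and from other liver cells cannot be told apart. Input and Foxa2 libraries were not used here, and no expression was measured in these files, so the tissue label was not checked against marker genes.

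Foxa1 is a winged helix transcription factor that can open compact chromatin and that acts with its paralog Foxa2 in the formation of the liver. Unlike the hepatocyte factors and the beta cell genes on the same list, the 3 genes here encode parts of general cell signalling and chromatin. Arap1 (formerly Centd2) encodes a protein with an ArfGAP and a RhoGAP domain that acts on small GTPases at membranes. Notch2 encodes a transmembrane receptor, cleaved when it meets a ligand on a neighboring cell, whose intracellular part then enters the nucleus, and it is required for bile duct formation. Gatad2a encodes a GATA zinc finger subunit of the NuRD complex, which joins nucleosome remodeling to histone deacetylation.

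The libraries held 3672991 to 8239957 reads. Reads of a library with the same strand and 5′ end were counted once, since amplification can copy a fragment, and this left 1473182 to 4742472 distinct reads per replicate outside the mitochondrial genome and 18032047 in all. Replicate 5 was the shallowest, with 21.1% of its reads distinct, against 57.6% in replicate 4 and 85.0 to 93.1% in replicates 1 to 3. The headers of replicates 3 and 4 carry the same animal name (WT4), so it is not known whether these come from different mice, and p-values across replicates measure the spread between 5 libraries. The 5′ ends were moved 50 bp toward the center of the fragment before counting.

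Foxa1 reads lay above their surroundings at all 3 intervals, and in pooled distinct reads the Arap1 and Notch2 intervals stood high in the list and that of Gatad2a low, an order that shifted with the libraries and copies counted. The Arap1 interval held 20 distinct reads, 11.5-fold over its flanks, the Notch2 interval held 21, or 10.6-fold, and the Gatad2a interval held 8, or 4.23-fold. The flanks were stretches of 5 kb left and right of the interval, with a gap of 1 kb in between. All 33 listed intervals (100%) passed an adjusted p of 0.05 in this comparison (one-sided exact binomial test, Benjamini-Hochberg adjustment over the 33), so passing it sets no member apart. The study chose the intervals partly on the reads of these same libraries, and the p-values describe the excess and are no independent evidence of binding.

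**Figure D1:**
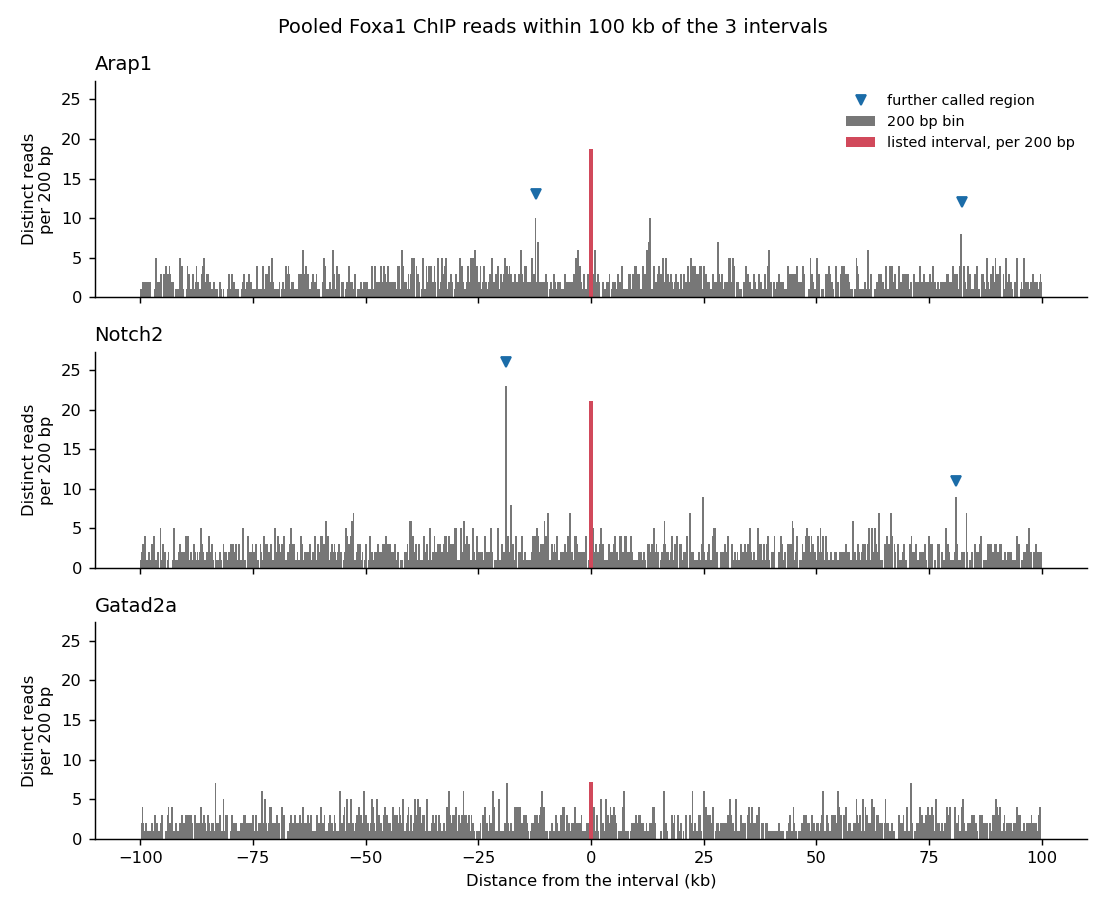
Pooled distinct Foxa1 reads of the 5 replicates (vertical axis, reads per 200 bp) against distance from each listed interval (horizontal axis, kb), in bins of 200 bp (gray). The red bar is the listed interval, scaled to 200 bp and drawn wider than it is, and triangles mark further called regions, of which Arap1 and Notch2 have 2 each and Gatad2a 0.

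The Arap1 interval lies at chr7:101197192-101197405 (mm8) and is 214 bp wide. Replicates 1 to 5 held 3, 6, 0, 9 and 2 distinct reads in it, where their flanks predict 0.214, 0.471, 0.492, 0.407 and 0.150 reads. Reads were thus above the flanks in replicates 1, 2, 4 and 5, and replicate 3, among the deepest libraries, had none. A count of 0 allows up to 3 reads (one-sided 95% limit), or 6.10 times the flanks of replicate 3, for counting error only. Pooled, the 20 reads compare with 81 in the flanks, which gives 11.5-fold with a 95% exact (Clopper-Pearson) interval of 6.70 to 19.0 (adjusted p = 2.87e-13, exact binomial test). The limit of 6.10 lies below that interval. With the flank prediction taken as exact, replicate 3 thus fell short of the pooled fold beyond counting error. Without replicate 4, which held 9 of the 20 reads, the fold was 8.29, and without replicate 3 it was 16.1.

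The Notch2 interval lies at chr3:98130452-98130650 (mm8) and is 199 bp wide. It held 9, 2, 2, 5 and 3 distinct reads in replicates 1 to 5, against 0.239, 0.438, 0.557, 0.478 and 0.279 predicted by the flanks. Of the 3 members this was the one with reads above the flanks in every replicate. Its 21 reads compare with 100 in the flanks, or 10.6-fold with an exact interval of 6.26 to 17.0 (adjusted p = 2.87e-13, exact binomial test). Replicate 1 held 9 of them, and without replicate 1 the fold was 6.85.

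The Gatad2a interval lies at chr8:72896406-72896630 (mm8) and is 225 bp wide. Replicates 1 to 5 held 0, 1, 1, 3 and 3 distinct reads, against 0.293, 0.338, 0.585, 0.563 and 0.113 predicted by the flanks. The excess thus rests on 6 of 8 reads in replicates 4 and 5, while replicates 2 and 3 held 1 read each and the count of 0 in replicate 1 allows up to 10.3 times its flanks. Pooled, 8 reads against 84 in the flanks gave 4.23-fold, with an exact interval of 1.77 to 8.73 (adjusted p = 0.00114, exact binomial test). Without replicate 5, the library with the fewest distinct reads, the fold was 2.81 and the adjusted p was 0.0406.

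**Figure D2:**
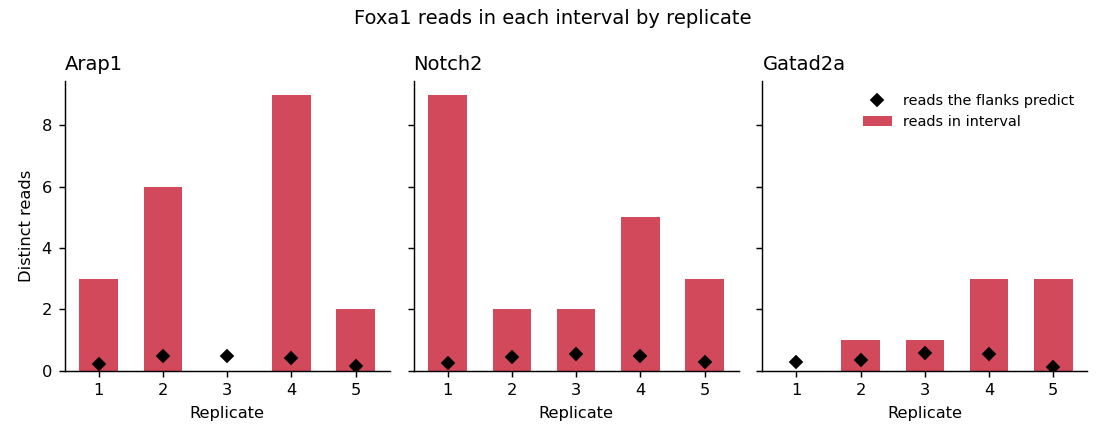
Distinct Foxa1 reads in each interval (bars, starting at 0) by replicate, with the number that the 5 kb flanks predict (diamonds). Replicate 3 at Arap1 and replicate 1 at Gatad2a have no bar because they held 0 reads.

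Scaled to depth, the replicates at each interval differed from each other by more than the means of the 3 intervals did. The excess over the flanks, in reads per 1000000 distinct reads, was 0.89, 1.30, -0.11, 1.81 and 1.26 in replicates 1 to 5 at Arap1, or 1.03 ± 0.72 (SD, n = 5). It was 2.80, 0.37, 0.33, 0.95 and 1.85 at Notch2, or 1.26 ± 1.06 (SD, n = 5). At Gatad2a it was -0.094, 0.16, 0.094, 0.51 and 1.96, or 0.53 ± 0.83 (SD, n = 5). At Notch2 all 5 replicates were positive, which gave a one-sided p of 0.031 and a two-sided p of 0.062 by an exact permutation of signs, the lowest values possible with 5 replicates. With 4 of 5 replicates positive, the one-sided p was 0.062 at Arap1 and 0.094 at Gatad2a by the same exact test. If replicates 3 and 4 count as 1 unit, the Notch2 value was 1.41 with a one-sided exact p of 0.062, the smallest that 4 units allow. The intervals were listed partly on the reads of these same libraries, which favors an excess. The p-values of this permutation are therefore no independent evidence of binding.

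The 3 pairs of intervals were compared in windows of 200 bp about their midpoints, with the flanks as reference. The windows held 20 reads at Arap1, 21 at Notch2 and 8 at Gatad2a. The odds of a read lying in the window rather than the flanks were 2.58 times as high at Arap1 as at Gatad2a (95% interval 1.02 to 7.17, Fisher's exact test, two-sided adjusted p = 0.110 over the 3 pairs). For Notch2 against Gatad2a the ratio was 2.20 (0.879 to 6.04, adjusted p = 0.110, Fisher's exact test). For Arap1 against Notch2 it was 1.17 (0.562 to 2.45, adjusted p = 0.729, Fisher's exact test), an interval that holds both a higher and a lower value at Arap1. At this depth no pair differed beyond counting error after adjustment. Matched by library, the excess in reads per 1000000 was higher at Notch2 than at Gatad2a in 4 of 5 replicates, by 0.73 ± 1.23 (SD, n = 5, two-sided exact permutation of signs, adjusted p = 0.375 over the 3 pairs). For Arap1 minus Gatad2a it was 0.50 ± 0.90 (3 of 5 higher, adjusted p = 0.375), and for Arap1 minus Notch2 it was -0.23 ± 1.18 (2 of 5 higher, adjusted p = 0.688) by the same exact test, which cannot go below 0.062 with 5 replicates. Without replicate 5 the ratios over Gatad2a were 3.82 for Arap1 and 3.29 for Notch2, with adjusted p of 0.0230 and 0.0360 by Fisher's exact test. Other settings moved them the other way: with copies of reads kept they were 1.07 and 1.06 (adjusted p = 1 for both), and without replicate 1 the ratio of Notch2 to Gatad2a was 1.21 (adjusted p = 0.813, Fisher's exact test).

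Among the 33 listed intervals, Arap1 ranked 3, Notch2 ranked 4 and Gatad2a ranked 28 by fold over the flanks. The other 30 intervals ranged from 2.69-fold to 14.0-fold with a median of 6.51-fold, and held 7 to 28 reads with a median of 12.5. The ranks are of pooled reads and moved with the setting. Over 13 alternatives, chosen after seeing the data, Arap1 ranked 2 to 12, Notch2 2 to 15 and Gatad2a 16 to 31. Notch2 ranked 15 without replicate 1, Arap1 ranked 12 with copies kept and 11 by the mean depth-scaled excess, and Gatad2a ranked 16 with copies kept. The exact intervals of neighbors in this order overlap widely. In reads, 32 of the 33 held at least the 8 of Gatad2a, a count that includes Gatad2a itself and other intervals tied with it at 8.

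**Figure D3:**
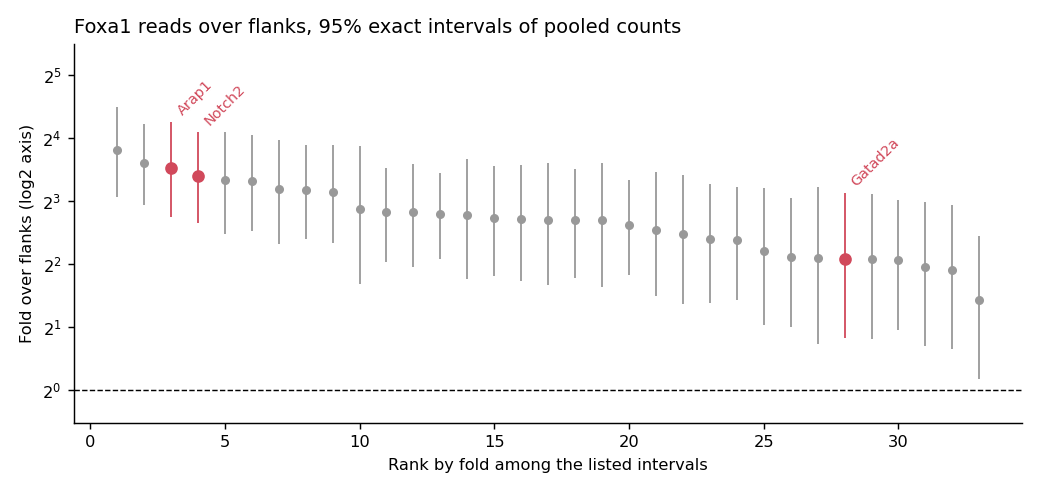
Fold of pooled distinct Foxa1 reads over the flanks (vertical log2 axis) for the 33 listed intervals in order of their fold, with 95% exact intervals of the counts. The members are red and labeled, at ranks 3, 4 and 28, the other 30 are gray, and the dashed line marks 1, where interval and flanks have the same density.

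The reads were also described by strand, which is no independent evidence, since the intervals were listed partly on these same reads. In sequencing of precipitated fragments, reads on the plus strand start left of a bound site and those on the minus strand start right of it. Within 250 bp of the midpoint of the Arap1 interval, 11 plus-strand reads had a median 5′ end at -28 bp and 16 minus-strand reads at 31 bp, an offset of 59 bp. At Notch2, 13 plus-strand reads had their median at -16 bp and 10 minus-strand reads at 54.5 bp, an offset of 70.5 bp. At Gatad2a, 4 and 7 reads had medians at -89 and 15 bp, an offset of 104 bp. In all 3 the plus-strand median lay left of the minus-strand median, as it did in 29 of the other 30 listed intervals, whose median offset was 76 bp. The offset of Gatad2a rests on 11 reads, and no test was made.

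**Figure D4:**
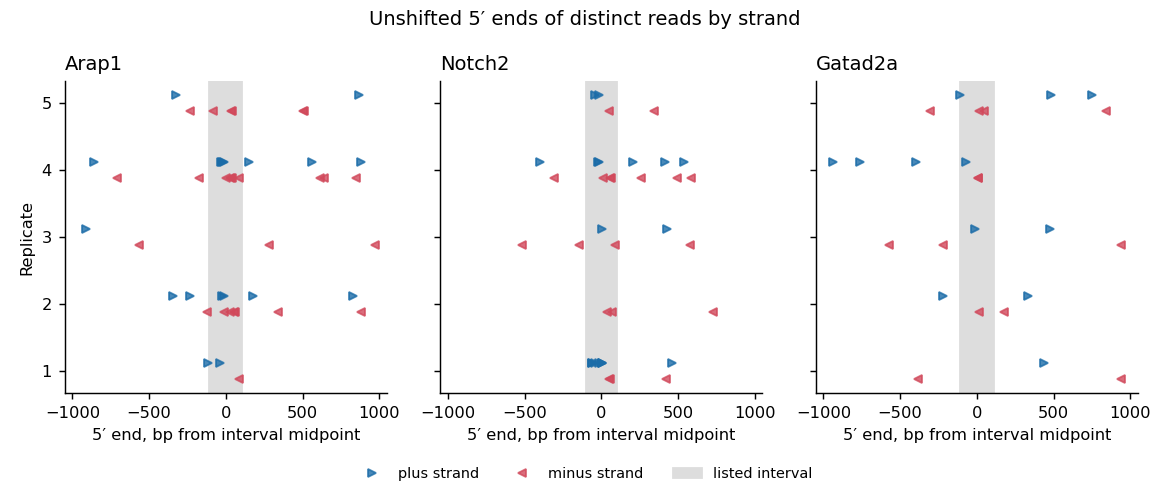
Unshifted 5′ ends of distinct reads on the plus strand (blue, pointing right) and the minus strand (red, pointing left) by replicate, against distance from the midpoint of each listed interval (horizontal axis, bp). Within the gray interval, plus-strand ends lie mostly left of minus-strand ends at Arap1 and Notch2, and few reads lie there at Gatad2a.

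Copies of reads weigh differently on the 3 intervals. Counted as deposited, the Arap1 interval held 3, 6, 0, 11 and 5 reads in replicates 1 to 5, the Notch2 interval held 9, 6, 2, 9 and 14, and the Gatad2a interval held 0, 1, 1, 7 and 16. At Gatad2a, 16 of 25 deposited reads came from replicate 5, where 1 position alone was read 8 times. In the flanks of Gatad2a, replicate 5 had 20 deposited reads for 5 distinct reads, and the other replicates had 1.08 to 1.72 deposited reads per distinct read. With copies kept, the fold at Gatad2a was 8.96 instead of 4.23, while it was 10.1 at Arap1 and 10.7 at Notch2.

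The surroundings were described in 1000 bins of 200 bp for each gene, 500 on each side, tiled outward from the edges of the interval. The read density within 100 kb was 1.28 ± 0.13 times the genome mean around Arap1, 1.33 ± 0.20 around Notch2 and 1.20 ± 0.19 around Gatad2a (SD, n = 5). The genome mean was taken over whole chromosome lengths, including any stretch where reads cannot be placed. A ratio above 1 thus does not by itself show raised Foxa1 signal, and the ratio was not taken for the other listed intervals. Replicate 1 had the lowest ratio in each of the 3 surroundings, at 1.07, 1.10 and 0.952. A bin held a mean of 1.78 ± 1.49 reads around Arap1, 1.78 ± 1.64 around Notch2 and 1.67 ± 1.39 around Gatad2a (SD over the bins), and 200, 210 and 223 of the 1000 bins were empty. Scaled to 200 bp, the Arap1 interval held 18.7 reads, more than any of its 1000 bins, of which the highest held 10. The Gatad2a interval held 7.11, which is 8 reads scaled from 225 bp, and its highest bins held 7. The Notch2 interval held 21.1, and 1 bin around it held more, with 23. Within single replicates, the interval exceeded every bin in 2 of 5 replicates at Arap1, 1 at Notch2 and 0 at Gatad2a. The intervals were listed partly on these same reads and the bins were not, which favors the intervals.

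Regions with an excess of reads were then called over the whole genome, in windows of 200 bp every 50 bp, against the genome mean of 1.37 reads per window or the local mean over 5 kb to either side, whichever was larger. Of the 34334257 windows with a read, 27367 passed a 5% false discovery rate (0.0797%, one-sided Poisson test, Benjamini-Hochberg adjustment), which merged into 11791 regions, or 0.896 per 200 kb. The Arap1 and Notch2 intervals each overlapped a called region, as did 25 of the 33 listed intervals (75.8%). The Gatad2a interval did not. Its best window held 9 reads, 5.40-fold over the background, with p = 6.18e-05 (exact Poisson test), where the largest p of a called window was 3.96e-05. A region was called there without replicate 1, without replicate 3, with a local background of 10 kb, and with all reads as deposited, a setting that called 701244 regions over the genome.

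Around Notch2 a region that the list does not give was as strong as the listed one. It lies at chr3:98111401-98111750, 18.9 kb from the listed interval toward lower coordinates, and its peak window held 24 distinct reads, 14.4-fold over the background (adjusted p = 1.20e-15, genome-wide exact Poisson test). Replicates 1 to 5 held 1, 5, 0, 13 and 5 of these reads, where the peak window at the listed interval held 9, 2, 2, 5 and 3. Replicate 1 thus had most of its reads at the listed interval, and replicates 2, 4 and 5 had more at the other region. The peaks held 1.53 ± 1.49 and 1.38 ± 1.06 reads per 1000000 (SD, n = 5), and the spread between replicates is far larger than the difference of these means. The Poisson p is of pooled reads and leaves out this spread, and the region was not tested across replicates. The strands were offset by 113 bp at this region, with 14 plus-strand and 10 minus-strand reads within 250 bp, but regions were called on ends already shifted inward, which favors such an offset. The region was called under each of the 11 alternative settings and reduced sets of replicates, as were the regions at the listed Arap1 and Notch2 intervals. Among the 11 is the setting with all reads as deposited, where 701244 regions were called over the genome and a call says little. Since the list holds elements bound by both factors, it does not show whether the study called a Foxa1 site there. The list prints the Notch2 interval on 2 identical lines, and it is not known whether 1 of them was meant for another interval.

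The other called regions were weak. A further region near Notch2, at chr3:98211451-98211650 and 81.0 kb toward higher coordinates, held 9 reads in its peak window, with 1, 2, 5, 1 and 0 in replicates 1 to 5 (adjusted p = 0.0220, genome-wide exact Poisson test). This was the only called region of the 3 surroundings in which replicate 3 held the most reads. Around Arap1, a region at chr7:101184801-101185100, 12.3 kb toward lower coordinates, held 11 reads, with 0, 4, 0, 5 and 2 in the replicates (adjusted p = 0.0105, genome-wide exact Poisson test). Another, at chr7:101279351-101279550 and 82.2 kb toward higher coordinates, held 10 reads, of which replicates 2 and 4 held 4 and 6 and the others 0 (adjusted p = 0.0285, genome-wide exact Poisson test). The fewest reads in any called window of the genome were 9, so these regions lie near the limit. They were called in 5 or 6 of the 11 alternatives, and both of those around Arap1 were lost without replicate 2 and without replicate 4. Each count includes the setting with all reads as deposited, where 701244 regions were called over the genome and a call says little.

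**Figure D5:**
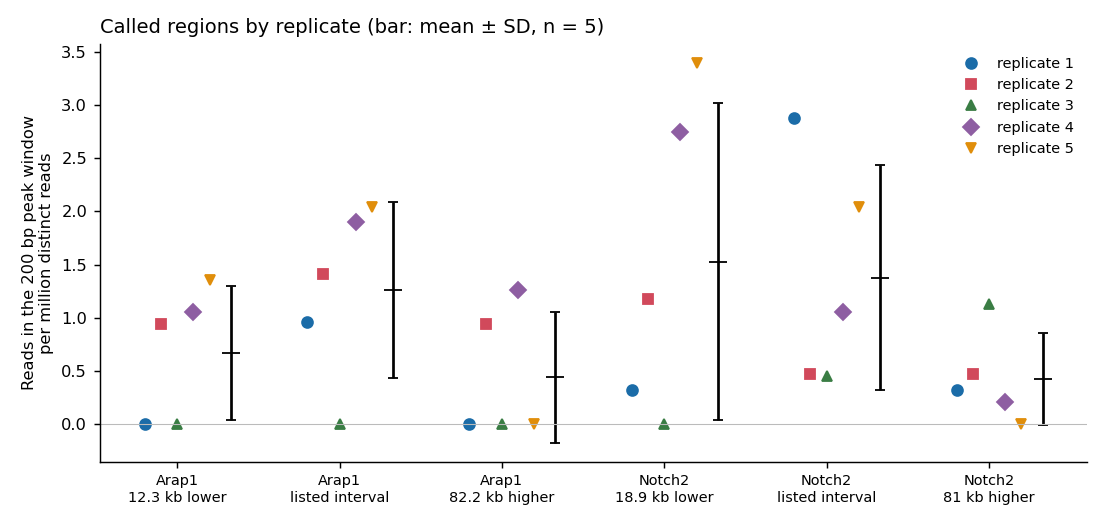
Reads in the 200 bp peak window of each called region, in reads per 1000000 distinct reads (vertical axis), by replicate (symbols), for the 3 regions around Arap1 and the 3 around Notch2. Black bars give the mean ± SD (n = 5). Replicate 3 has 0 reads at all 3 regions around Arap1 and at the Notch2 region 18.9 kb away, and replicate 1 is the highest at the listed Notch2 interval.

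Arap1 and Notch2 thus had 3 called regions each within 100 kb and Gatad2a had 0. Over the genome, 8.22% of 13143 blocks of 200 kb held at least 3 called regions, 22.2% held at least 2, and 48.1% held 0. The blocks tile whole chromosome lengths, including any stretch where reads cannot be placed, so these are not shares of gene surroundings alone. The listed interval accounts for 1 of the 3 regions at Arap1 and at Notch2. The surroundings of all 33 listed intervals had a median of 2.

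Some of the bins with the most reads lay outside the called regions. They were picked as the highest of 1000, did not pass the region call, and are given as values alone. Around Arap1, the bin at chr7:101210406-101210605, 13.1 kb toward higher coordinates, held 10 reads in 4 of 5 replicates (3, 0, 1, 3 and 3), as many as the bin in the called region 12.3 kb on the other side. Around Notch2, the bin at chr3:98155451-98155650 held 9 reads, with 1, 2, 4, 2 and 0 in the replicates. Around Gatad2a, the 3 highest bins held 7 reads each, at 18.7, 70.9 and 83.3 kb from the interval.

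Positions relative to exons and start sites were not analysed here, since no annotation in mm8 was used. In the RefSeq gene table of GRCm38.p6, used for names and order alone, the protein-coding neighbors are Stard10 and Pde2a for Arap1, Gm5544 and Adam30 for Notch2, and Tssk6 and Mau2 for Gatad2a. Stard10 encodes a lipid transfer protein and Pde2a a cyclic nucleotide phosphodiesterase, so a region within 100 kb of an interval need not belong to the gene that the list names. The RefSeq promoters of the 3 genes in that build (6 windows, from 250 bases before to 50 after a start) were searched on both strands for the Foxa consensus in 4 forms, which were TATTGAC, its variant TATTTAC, the related form TGTTGAC, or the last form TGTTTAC. None of the 6 windows held it, against 3293 of all 32851 promoter windows (10%). At that share 6 windows often hold none, so the result does not set the 3 genes apart. The search says nothing of the listed intervals, whose sequence in mm8 was not used here.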

How the data were processed

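Foxa1 ChIP-Seq reads of 5 liver libraries were used, in 1 group, with replicate numbers from the sample titles. The authors deposited, per replicate, the chromosome, start, end and strand of 36 nt reads aligned with ELAND to mm8 (NCBI Build 36) at a unique best position, without normalization and with copies kept. Reads on the mitochondrial genome were left out, and BED starts were read as counted from 0. Replicates 4 and 5 held 12814 and 20345 mitochondrial reads, and replicates 1 to 3 held 0. The files of replicates 4 and 5, which also had the lowest shares of distinct reads, thus differ in content from the others. The reason is not known. Counts, tests and figures were made with Python 3.11.15, NumPy 2.4.6, SciPy 1.17.1, pandas 2.3.3 and Matplotlib 3.10.9.

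Flanks stood in for input, which the study's GLITR calls had used. Fold intervals are 95% Clopper-Pearson intervals of the pooled counts and cover counting error only. The exact binomial, Fisher and Poisson p-values are of pooled reads too and leave out the spread between libraries. The local background of a window left out its central 1000 bp, and called windows that overlapped or touched were merged. Widths, shift, flanks, backgrounds, copies, the false discovery rate and each replicate were varied. Named items were the 3 intervals, the called regions within 100 kb and the 3 highest bins per surrounding. The members and lists were chosen with earlier results of these data known. The interval test, the pair test, the permutation test and the region calls were run on simulated reads. These had an even background and the same planted fold in every replicate, so they do not copy the spread between the libraries here. Sequences of the intervals are not shown, since no genome in mm8 was used here.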

Additional observations from a re-analysis of the deposited data

How the results depend on the processing

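The folds over flanks at the 3 intervals stayed above 1 with an adjusted p under 0.05 in every alternative. Since the intervals were listed partly on these same reads, this too is no independent evidence of binding. Leaving out 1 replicate gave 8.29 to 16.1 at Arap1, 6.85 to 13.3 at Notch2 and 2.81 to 5.36 at Gatad2a. Widening the intervals by 100 bp on each side lowered the folds to 7.16, 5.80 and 2.80, since the added bases hold fewer reads per base than the intervals. The mean depth-scaled excess went from 1.03 to 1.21 at Arap1, from 1.26 to 1.19 at Notch2 and from 0.526 to 0.531 at Gatad2a. The Notch2 excess across replicates had a one-sided p above 0.05 with replicates 3 and 4 averaged (1.41) and with any replicate left out (0.873 to 1.49), as 4 units cannot go below 0.062 (exact permutation test). At Gatad2a it was 0.167 without replicate 5. The ratio of Arap1 to Notch2 fell below 1 with flanks of 20 kb (0.936) and ranged from 0.844 to 1.75 with 1 replicate left out. The ratios over Gatad2a ranged from 2.08 to 3.82 for Arap1 and from 1.21 to 3.29 for Notch2 with 1 replicate left out. With copies kept they were 1.07 and 1.06. The 6 called regions became 191 with all reads as deposited, 3 with a shift of 100 bp and 3 at a false discovery rate of 1%, and 4 to 8 with 1 replicate left out. Around Arap1, 1 region remained without replicate 4. Over the genome, 701244 regions were called with all reads as deposited, 7585 with a shift of 100 bp, 5766 at 1%, 6514 without replicate 4 and 7293 without replicate 5, but 14098 without replicate 1 and 12815 without replicate 3, against 11791. With 1 group there were no samples to pair between conditions, and the comparison of intervals within replicates, added after seeing the data, cannot reach 0.05 with 5 replicates in a two-sided exact permutation test. Replicates with 0 reads do not show an absence of binding.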
